A study of Mus musculus with 6 samples.

Results

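Aminoacyl-tRNA synthetases are the enzymes that join each amino acid to its transfer RNA, the step that supplies the ribosome with charged tRNAs. Mammalian cells keep separate nuclear-encoded sets for the cytosol and for mitochondria, where the few proteins encoded by mitochondrial DNA are made. Several cytosolic synthetases sit together in a multi-synthetase complex, many cytosolic synthetase genes are induced by ATF4, the transcription factor of the amino acid response, and the tryptophan enzyme gene Wars is a classic interferon-gamma-induced gene of macrophages. The genes described here are 34 synthetase genes, listed by symbol with earlier results of these data known, out of 46095 genes in the table. They comprise 19 genes of the cytosolic set and 15 of the mitochondrial set, whose symbols end in 2. All 34 had a row under the listed symbol, and all 34 passed the filter on low counts. Gars and Kars are placed with the cytosolic genes, although each is known to encode both the cytosolic and the mitochondrial enzyme.

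The study compared bone marrow-derived macrophages of wild-type (WT) mice with those of Cd226-/- mice, which lack the activating adhesion receptor CD226 (DNAM-1). Both groups were C57BL/6 mice aged 56 days, and the marrow cells of both were grown for 7 days in M-CSF (20 ng/ml) and then treated for 24 h with IFN-γ (20 ng/ml) and LPS (100 ng/ml). No unstimulated group was analysed here, so every value below is a level after the same M1-type stimulus. Each genotype had 3 libraries. How the Cd226 allele was made, and whether each replicate was its own mouse or culture, is not in the labels. The p-values therefore reflect only differences among these 6 libraries, and part of that spread may be technical.

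Total counts ranged from 16838527 to 21658061 in WT and from 16925955 to 18867799 in Cd226-/-. The targeted gene was near the detection limit in both genotypes (5 to 23 counts in WT and 8 to 11 in Cd226-/-), so its counts did not check the labels. Macrophage markers were abundant, with a summed level over 8 genes of 17932 to 19895 CPM in WT and 19212 to 20005 CPM in Cd226-/-. Lyz2 made up most of this sum (10173 to 11524 CPM in WT). Of the 8 genes, 4 were called higher and 3 lower in Cd226-/-, so the sums do not show a like state. The 5 B-cell markers were low but all higher in Cd226-/- (12.2 to 15.1 CPM in WT and 30.0 to 39.3 CPM in Cd226-/-, summed). The 4 fibroblast markers summed to 342 to 396 CPM in WT and 475 to 503 CPM in Cd226-/-. Of these, 3 were called higher, and Dcn was not called and pointed the other way (log2 fold change -0.092). Dendritic cell markers summed to 40.6 to 56.8 CPM in WT and 65.3 to 75.8 CPM in Cd226-/-, and 1 of the 3 tested was called higher, Ccr7. Hepatocyte markers summed to 18.4 and 18.5 CPM in Cd226-/- replicates 2 and 3 and were at 0 in Cd226-/- replicate 1, and at 0 to 0.0584 CPM in WT. Cd226-/- replicate 1 also stood apart from the other Cd226-/- libraries on the second principal component (15.5% of variance). The part of these other cell types in the synthetase values was not tested, and member counts with replicate 1 standing alone for Cd226-/- are given beside the main counts.

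The synthetase genes that rose in Cd226-/- macrophages were all cytosolic, and all but 1 of those that fell were mitochondrial. The log2 fold change was above 0 for 14 of 19 cytosolic genes and below 0 for 11 of 15 mitochondrial genes, whether or not they passed. In edgeR's quasi-likelihood test at an adjusted p under 0.05, 9 of the 19 cytosolic genes rose, 1 fell and 9 did not pass. Of the 15 mitochondrial genes none rose, 6 fell and 9 did not pass. With scaling by total count alone, the 34 genes split into 7 higher and 10 lower in place of 9 and 7. Over all 13215 genes tested, 30.9% were called, 16.1% higher and 14.8% lower. At an unadjusted p under 0.05, 1 mitochondrial gene was higher and 8 were lower, and DESeq2's Wald test called 0 higher and 3 lower. The median log2 fold change was 0.13 for the cytosolic genes and -0.20 for the mitochondrial genes, against -0.0045 for all genes tested. When replicate 1 alone stood for Cd226-/- (a choice made once the data had been seen), 6 cytosolic genes rose, 1 fell and 6 mitochondrial genes fell. The number of mitochondrial genes that fell was 3 without WT replicate 1 and 3 without WT replicate 2, and the number of cytosolic genes that rose was 6 without WT replicate 1. In these bulk libraries a change in RNA per cell and a change in the share of a cell type cannot be told apart.

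**Figure D1:**
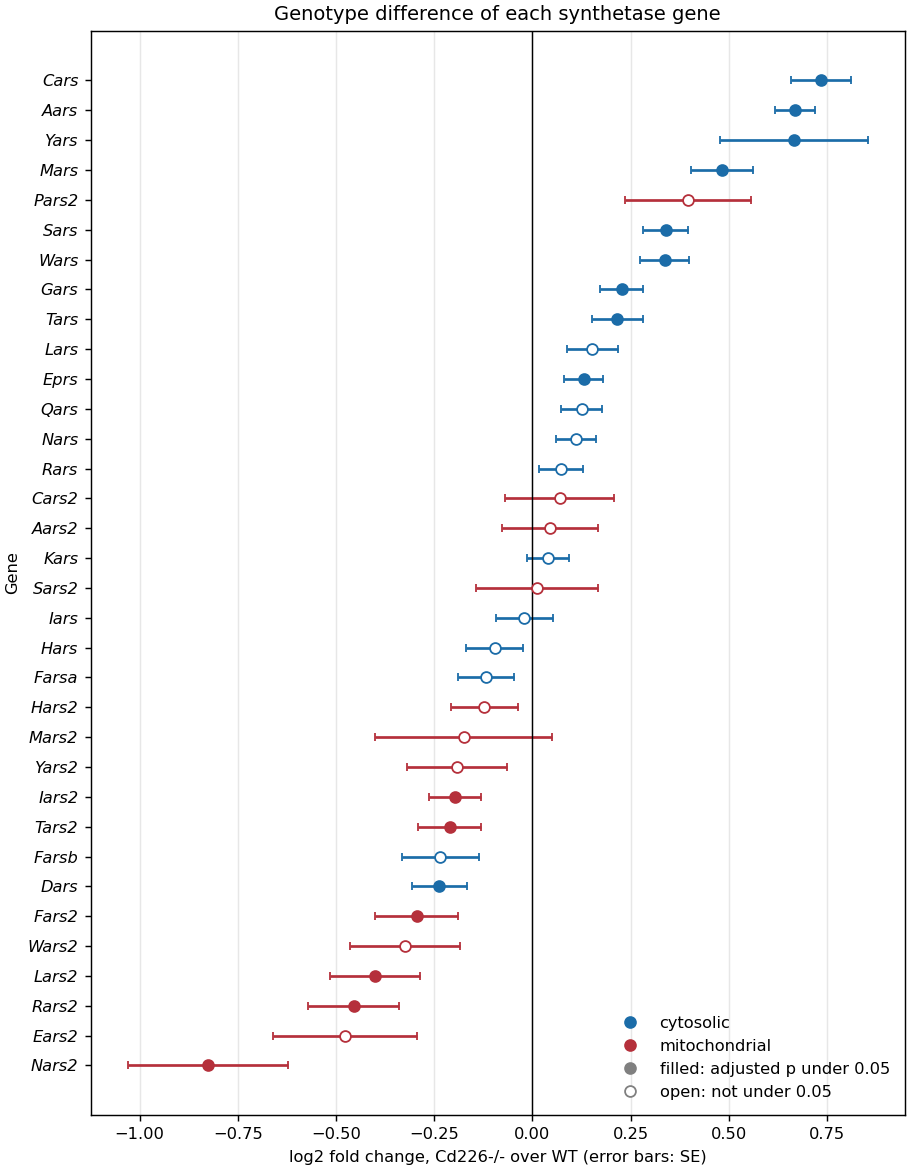
Log2 fold change of each of the 34 synthetase genes, Cd226-/- over WT (horizontal axis, error bars are SE from the fit on 3 libraries per genotype), with cytosolic genes in blue, mitochondrial genes in red and filled points for an adjusted p under 0.05. The filled points to the right of 0 are all cytosolic, from Eprs (0.13) to Cars (0.73), and those to the left are 6 mitochondrial genes and Dars (-0.24).

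The summed level of each class separated the libraries of the genotypes, in opposite directions. The 19 cytosolic genes added up to 1415, 1376 and 1371 CPM in WT replicates 1 to 3 and to 1599, 1628 and 1581 CPM in Cd226-/- replicates 1 to 3. All 3 Cd226-/- sums lay above the WT sums. The 15 mitochondrial genes added up to 231, 234 and 233 CPM in WT and to 190.4, 203 and 211 CPM in Cd226-/-, all 3 below the WT sums. The cytosolic sum was thus 5.96 ± 0.152 times the mitochondrial sum in WT and 7.97 ± 0.446 times in Cd226-/- (SD, n = 3). These are shares of reads, not corrected for gene length, and the sums over listed genes are a description without a test. Abundant genes weigh most in them, so they do not show a shift of every gene. Mean CPM in WT and Cd226-/- were 184 and 233 for Wars, 101 and 160.5 for Aars, and 61.6 and 53.7 for Iars2.

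**Figure D2:**
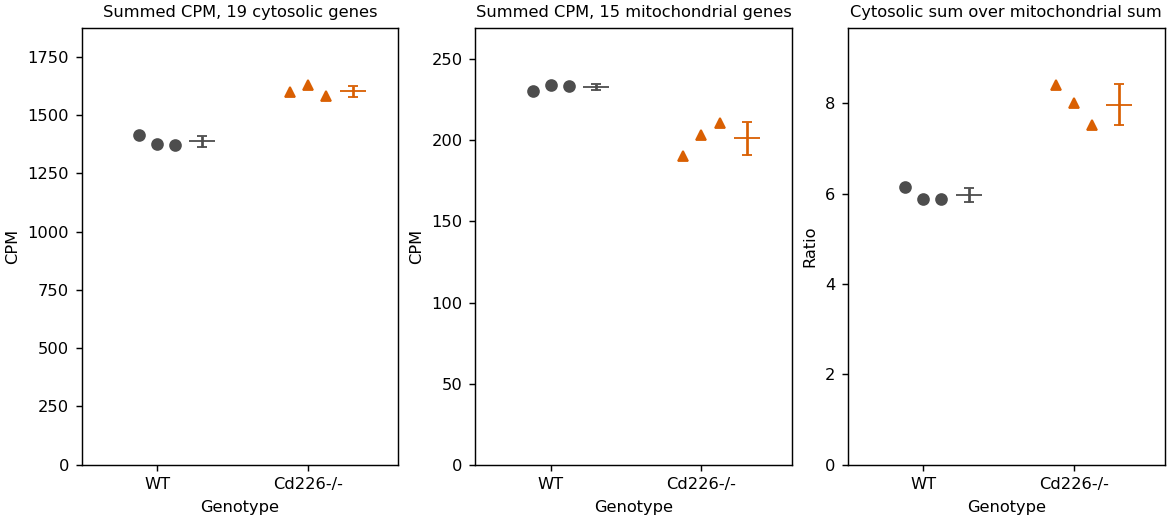
Summed CPM of the cytosolic genes (left), of the mitochondrial genes (middle) and their ratio (right) in each library, with the mean and SD of each genotype beside the points and all vertical axes starting at 0. The Cd226-/- libraries lie at 1581 to 1628 CPM against 1371 to 1415 CPM for the cytosolic sum, and at 190.4 to 211 CPM against 231 to 234 CPM for the mitochondrial sum.

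Among cytosolic enzymes outside the multi-synthetase complex, 7 of 11 genes rose and none fell (8 higher and 1 lower at an unadjusted p under 0.05; 7 and 0 by DESeq2). Cars, the cysteine enzyme (chromosome 7, 143557230 to 143600090, GRCm38), had 35.6, 30.4 and 30.7 CPM in WT replicates 1 to 3 and 56.9, 54.3 and 49.7 CPM in Cd226-/- replicates 1 to 3. The genotypes did not overlap, and the rise was 1.66-fold (log2 fold change 0.73 ± 0.076 (SE), adjusted p = 1.68e-07 in edgeR). Aars, which charges alanine tRNA (chromosome 8, 111033144 to 111057664), had 104, 102 and 97.0 CPM in WT and 165, 156 and 160.4 CPM in Cd226-/-. It rose 1.59-fold (log2 fold change 0.67 ± 0.052 (SE), adjusted p = 2.15e-09), the smallest adjusted p among the 34 genes.

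Yars, the tyrosine enzyme (chromosome 4, 129189760 to 129219607), was near the low end of the measured range, with counts of 57, 86 and 100 in the WT libraries and 128, 121 and 107 in the Cd226-/- libraries. Its levels were 3.12, 5.03 and 4.52 CPM in WT and 7.06, 7.25 and 5.83 CPM in Cd226-/-, without overlap. It rose 1.59-fold (log2 fold change 0.67 ± 0.19 (SE), adjusted p = 0.00945). The call did not hold without WT replicate 1, the lowest library (log2 fold change 0.49, adjusted p = 0.0689). Wars, for tryptophan (chromosome 12, 108860030 to 108894174), had 194, 164 and 194 CPM in WT and 245, 233 and 220.2 CPM in Cd226-/-. Every Cd226-/- library was above every WT library, a 1.26-fold rise (log2 fold change 0.34 ± 0.063 (SE), adjusted p = 4.38e-04). Sars, which loads serine (chromosome 3, 108424865 to 108445209), had 85.4, 79.4 and 77.3 CPM in WT and 102, 106 and 98.1 CPM in Cd226-/-. Here too the genotypes were separate, and the rise was 1.27-fold (adjusted p = 8.09e-05).

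Gars, the glycine enzyme (chromosome 6, 55038007 to 55079500), had 89.5, 86.9 and 86.1 CPM in WT and 96.9, 108 and 103 CPM in Cd226-/-. The rise was small, 1.17-fold (adjusted p = 0.00305), and it did not pass with Cd226-/- replicate 1 set alone against WT (log2 fold change 0.15, adjusted p = 0.138). Tars, for threonine (chromosome 15, 11382301 to 11399665), went from 50.9, 56.2 and 53.8 CPM to 59.4, 60.3 and 67.1 CPM, without overlap. That 1.16-fold rise (adjusted p = 0.0142) was lost when WT replicate 1 (adjusted p = 0.0926) or Cd226-/- replicate 3 (0.111) was left out, with Cd226-/- replicate 1 set alone against WT (0.240) and when scaled by library size alone (0.0636). The other 4 free enzymes did not pass. Nars, the asparagine enzyme, had a log2 fold change of 0.11 (adjusted p = 0.0989), and Hars, the histidine enzyme, had -0.096 (adjusted p = 0.337). Farsa and Farsb, which encode the alpha and beta subunits of the phenylalanine enzyme, had log2 fold changes of -0.12 (adjusted p = 0.215) and -0.23 (adjusted p = 0.0756).

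**Figure D3:**
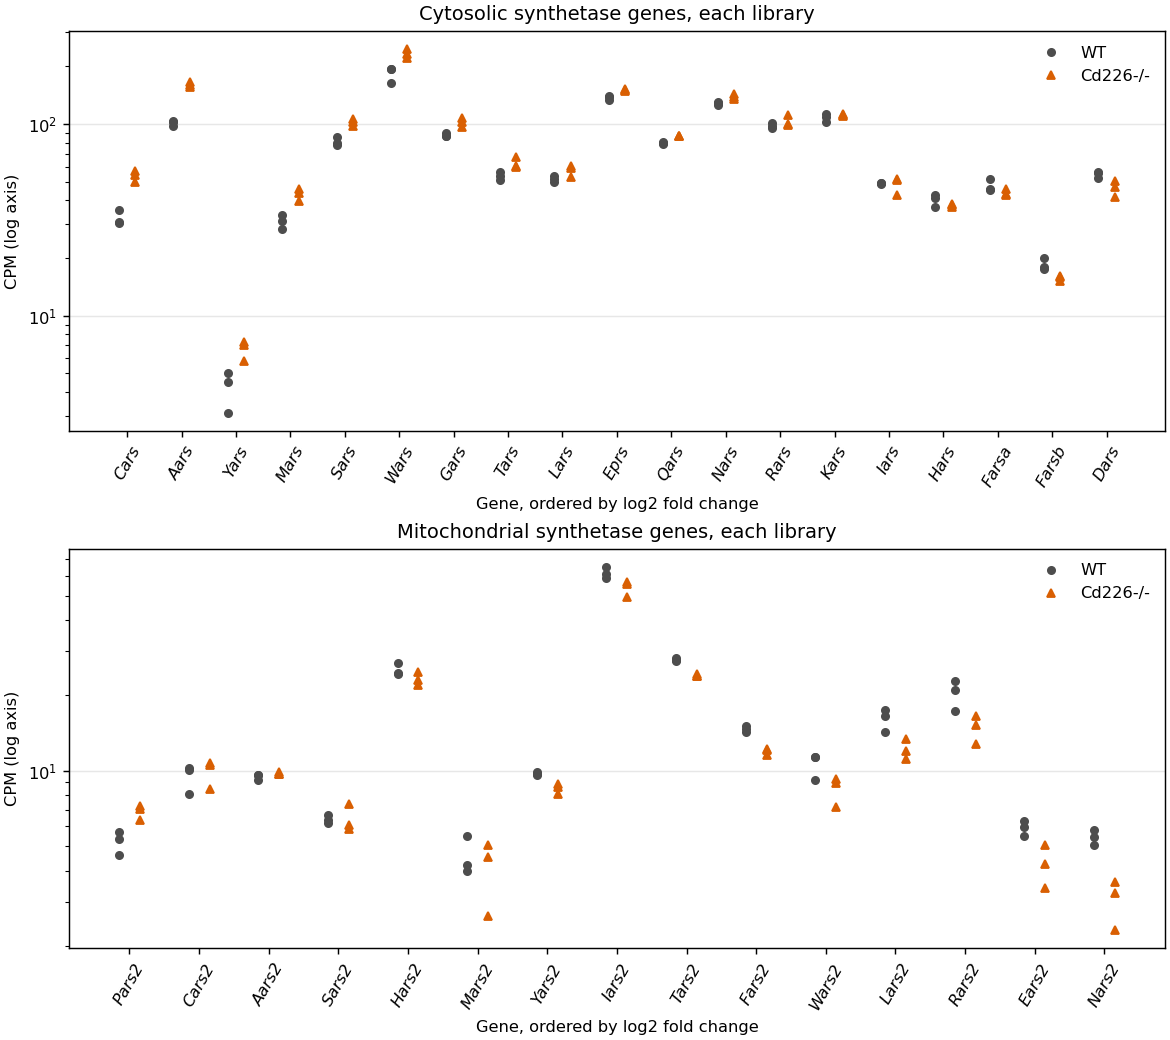
Level of each synthetase gene in CPM (vertical log axes) in every library, WT as grey circles and Cd226-/- as orange triangles, cytosolic genes above and mitochondrial genes below, each ordered by log2 fold change. At the left of the upper panel the Cd226-/- libraries lie above the WT libraries (Cars 49.7 to 56.9 against 30.4 to 35.6 CPM), and at the right of the lower panel they lie below them (Nars2 2.32 to 3.60 against 5.07 to 5.79 CPM).

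In the multi-synthetase complex, 2 of 8 enzyme genes rose and 1 fell. At an unadjusted p under 0.05, 4 were higher and 1 was lower, and DESeq2 called 1 and 1. Over all genes tested, 16.1% were called higher and 14.8% lower. Free and complex enzymes were not compared by a test. Mars, the methionine enzyme (chromosome 10, 127296221 to 127311786), had 31.2, 33.4 and 28.3 CPM in WT and 39.9, 45.7 and 43.9 CPM in Cd226-/-. It rose 1.40-fold without overlap (log2 fold change 0.48 ± 0.079 (SE), adjusted p = 6.48e-05). Eprs, the fused glutamate and proline enzyme (chromosome 1, 185363044 to 185428360), had 138, 141 and 133 CPM in WT and 152, 151 and 148 CPM in Cd226-/-. The 1.09-fold difference lay at the threshold (adjusted p = 0.0486) and was lost in 10 of 12 alternatives. Among these were the fits that left out WT replicate 1 (adjusted p = 0.119), 2 (0.0552) or 3 (0.172), and Cd226-/- replicate 2 (0.119) or 3 (0.0833).

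Dars, the aspartate enzyme (chromosome 1, 128363707 to 128417368), was the only cytosolic gene that fell. It had 56.3, 55.3 and 52.4 CPM in WT and 41.8, 50.2 and 47.2 CPM in Cd226-/-, with the lowest value in replicate 1. The log2 fold change was -0.24 ± 0.070 (SE, adjusted p = 0.0132), and the call was lost when replicate 1 of WT (adjusted p = 0.0642) or of Cd226-/- (0.0554) was left out. The other 5 complex enzymes did not pass: the log2 fold changes were 0.15 for Lars (leucine; adjusted p = 0.0813), 0.13 for Qars (glutamine; 0.0753), 0.073 for Rars (arginine; 0.351), 0.040 for Kars (lysine; 0.601) and -0.020 for Iars (isoleucine; 0.861). Lars passed without Cd226-/- replicate 1 (log2 fold change 0.21, adjusted p = 0.0136). By catalytic fold, 4 of 8 cytosolic class I genes rose and none fell, and 4 of 10 class II genes rose and 1 fell, with Eprs, which holds both folds, left out of this count. At an unadjusted p under 0.05, 6 class I genes were higher and 0 lower, and DESeq2 called 4 and 0. For class II these counts were 5 and 2, and 4 and 1 by DESeq2. The shares over all genes tested were 16.1% higher and 14.8% lower, and the classes were not compared by a test.

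Of the mitochondrial enzymes, Nars2, which charges asparagine tRNA (chromosome 7, 96951505 to 97064758), had the lowest fold change. Its counts were 99, 99 and 112 in the WT libraries and 42, 60 and 60 in the Cd226-/- libraries, or 5.42, 5.79 and 5.07 CPM and 2.32, 3.60 and 3.27 CPM. The groups were far apart relative to their spread, and the gene fell by 0.83 on the log2 scale (SE 0.20, adjusted p = 0.00367). Rars2, the arginine enzyme (chromosome 4, 34614957 to 34660167), had 17.3, 20.9 and 22.9 CPM in WT and 12.8, 15.2 and 16.6 CPM in Cd226-/-. Its highest Cd226-/- library was just under its lowest WT library, and it fell by 0.45 on the log2 scale (SE 0.12, adjusted p = 0.00506). Nars2 and Rars2 passed under all 12 alternatives, as did Cars, Aars, Mars, Sars and Wars among the cytosolic genes.

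The other 4 mitochondrial falls depended on single libraries or settings. Lars2, the leucine enzyme (chromosome 9, 123366927 to 123462666), had 14.2, 16.5 and 17.6 CPM in WT and 11.2, 12.1 and 13.4 CPM in Cd226-/-. It fell by 0.40 on the log2 scale (SE 0.11, adjusted p = 0.0102), and missed the threshold without WT replicate 3 (0.0644). Iars2, the isoleucine enzyme (chromosome 1, 185284726 to 185329396), had 65.1, 61.0 and 58.7 CPM in WT and 49.3, 55.5 and 56.4 CPM in Cd226-/-. The groups did not overlap, and the log2 fold change was -0.20 (adjusted p = 0.0278). That call was lost when WT replicate 1 (adjusted p = 0.144) or 2 (0.0539) or Cd226-/- replicate 1 (0.0992) was left out, and by DESeq2 (0.0601).

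Fars2, the phenylalanine enzyme (chromosome 13, 36117412 to 36726280), had 15.1, 14.3 and 14.7 CPM in WT and 12.1, 11.5 and 12.3 CPM in Cd226-/-. The log2 fold change was -0.29 (adjusted p = 0.0393). The call was lost in 8 of 12 alternatives, including those without WT replicate 1 (adjusted p = 0.10), WT replicate 2 (0.0519), WT replicate 3 (0.0767), Cd226-/- replicate 2 (0.138) or Cd226-/- replicate 3 (0.0815). Tars2, the threonine enzyme (chromosome 3, 95739976 to 95760206), had 28.3, 27.8 and 27.3 CPM in WT and 23.9, 23.8 and 24.3 CPM in Cd226-/-. Although the groups were tight and separate, the log2 fold change of -0.21 lay at the threshold (adjusted p = 0.0492) and was lost in 11 of 12 alternatives, including every fit that left out a library (adjusted p 0.0712 to 0.133).

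None of the other 9 mitochondrial genes passed. Ears2, which charges glutamate, was near the threshold with 5.48, 5.96 and 6.29 CPM in WT and 3.42, 4.26 and 5.07 CPM in Cd226-/- (log2 fold change -0.48, adjusted p = 0.0521). It passed without Cd226-/- replicate 3 (log2 fold change -0.62, adjusted p = 0.0346). Wars2, the tryptophan enzyme, had a log2 fold change of -0.32 (adjusted p = 0.0824), and passed without WT replicate 3 (adjusted p = 0.0450). Pars2, the proline enzyme, pointed the other way, with 4.60, 5.73 and 5.34 CPM in WT and 7.22, 6.36 and 7.03 CPM in Cd226-/-. The genotypes of Pars2 did not overlap, but its log2 fold change of 0.40 had a wide error (SE 0.16, adjusted p = 0.0652). Aars2, Cars2 and Sars2 had log2 fold changes of 0.045, 0.070 and 0.011, and Hars2, Mars2 and Yars2 had -0.12, -0.18 and -0.19. Standard errors were 0.066 to 0.23 among the mitochondrial genes (widest for Mars2) and 0.049 to 0.19 among the cytosolic genes (widest for Yars). Small changes of genes with wide errors could thus be missed. The parts of depth and of spread between libraries in these errors were not tested.

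Without regard to the test, the 3 Cd226-/- libraries were all above the WT libraries for 11 of 19 cytosolic genes and all below for 2. For the mitochondrial genes these counts were 2 and 8 of 15. Over all genes tested, 22.1% had no overlap with Cd226-/- higher and 22.3% with Cd226-/- lower.

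Per kilobase of exon, the cytosolic genes were the more abundant class in WT, with a median of 22.2 CPM per kb (range 1.45 to 64.1) against 3.43 CPM per kb (0.404 to 10.9) for the mitochondrial genes. The order of levels in WT began with Wars (64.1 ± 6.11 CPM per kb), Kars (48.2 ± 2.42), Rars (46.5 ± 1.20) and Nars (43.8 ± 0.863 CPM per kb; SD, n = 3 for each). Kars and Rars did not differ beyond their spread. The lowest cytosolic level per kb was that of Yars (1.45 ± 0.339), which lay between those of Pars2 (1.71 ± 0.187) and Nars2 (1.31 ± 0.0866) and within its own spread of both. Rars2 (10.9 ± 1.51 CPM per kb) led the mitochondrial genes and did not differ beyond its spread from the cytosolic Iars (11.1 ± 0.107). In Cd226-/- the levels were 81.0 ± 4.28 CPM per kb for Wars and 7.97 ± 1.02 for Rars2.

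For 12 amino acids both a cytosolic and a mitochondrial enzyme gene were listed, and the ratio of their counts within a library is free of the scaling between libraries (it is a ratio of reads, not of levels per length). The mean log2 ratio was higher in Cd226-/- for 12 of the 12 amino acids, with a median difference of 0.59. With 3 libraries against 3 an exact two-sided permutation test cannot go below 0.10, so no ratio could pass 0.05; the smallest adjusted p over the 12 was 0.120. Nars counts were 23.9, 22.4 and 24.7 times those of Nars2 in WT and 61.7, 38.3 and 41.2 times in Cd226-/-. The mean log2 ratio thus differed by 0.96 (exact permutation p = 0.10), the most of the 12. For alanine, Aars was 11.4, 10.6 and 10.1 times Aars2 in WT and 17.0, 16.1 and 16.2 times in Cd226-/-, a difference of 0.62 with little spread. For tyrosine the mitochondrial gene had more counts: Yars was 0.322, 0.509 and 0.469 times Yars2 in WT and 0.877, 0.840 and 0.656 times in Cd226-/-. The histidine genes showed next to no difference (0.027, exact permutation p = 1.00), and Hars was 1.51, 1.75 and 1.53 times Hars2 in WT and 1.50, 1.74 and 1.63 times in Cd226-/-. Leaving out WT replicate 1, WT replicate 3 or Cd226-/- replicate 2 gave a higher mean ratio for 11 of 12.

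**Figure D4:**
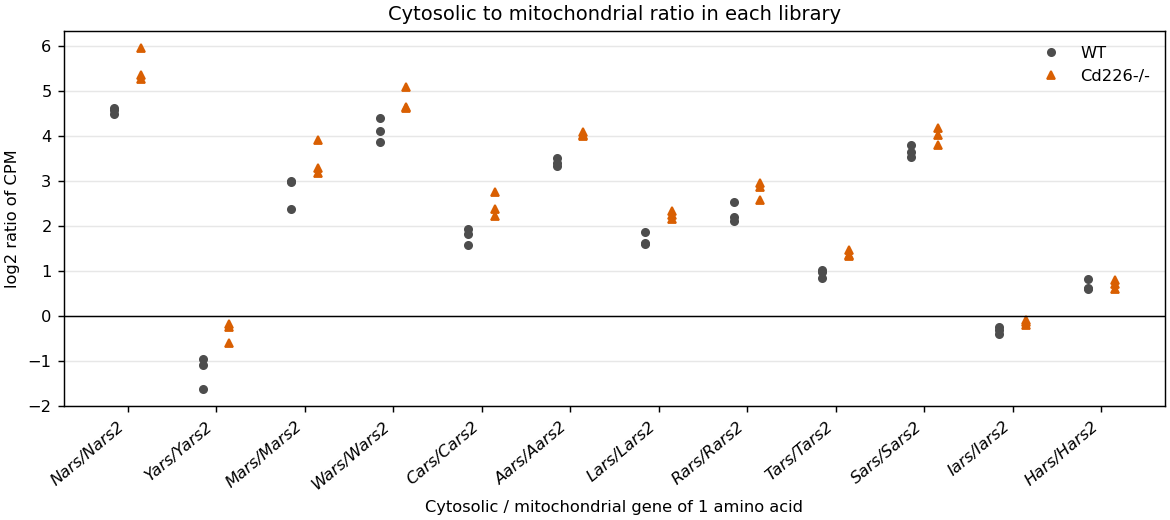
Log2 ratio of cytosolic to mitochondrial CPM for the 12 amino acids with both genes listed (vertical axis), in each library, WT as grey circles and Cd226-/- as orange triangles, ordered by the difference. The triangles lie above the circles for Nars/Nars2 at the left (difference 0.96) and among them for Hars/Hars2 at the right (0.027).

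Genes that work beside the synthetases were read from the same fit, in 10 lists with 47 genes of which 46 were tested. Of these 46, 13 rose and 5 fell (12 and 10 when scaled by total count alone). The shares over all genes tested were 16.1% higher, 14.8% lower and 30.9% called either way. A list of 3 or 4 genes with 1 called is thus near the share of all genes. The complex is held together by the scaffold proteins of Aimp1, Aimp2 and Eef1e1. Of these 3 genes, 1 fell, Eef1e1 (17.5 ± 0.800 CPM in WT and 14.4 ± 0.375 in Cd226-/- (SD, n = 3), adjusted p = 0.0323), and that call was lost in 7 of 12 alternatives, among them the fits without WT replicate 2 (0.0947), WT replicate 3 (0.0578), Cd226-/- replicate 1 (0.0607), Cd226-/- replicate 2 (0.0655) or Cd226-/- replicate 3 (0.0878). In the amidotransferase that makes mitochondrial Gln-tRNA, 1 of 3 subunit genes fell, Gatb, with 12.4, 11.1 and 11.4 CPM in WT and 7.72, 8.87 and 8.50 CPM in Cd226-/-. Its log2 fold change was -0.48 ± 0.12 (SE, adjusted p = 0.00560). Among 4 editing factors, 1 rose: Prorsd1, a homologue of a prolyl-tRNA editing domain, rose 1.46-fold (adjusted p = 0.00108; 0.110 with Cd226-/- replicate 1 alone). None of the 4 genes of formylation and selenocysteine or the 4 of tRNA export and ligation passed. Nor did the 5 genes listed with the eIF2 alpha kinases, which sense stresses that include uncharged tRNA (Eif2ak1 to Eif2ak4, and Gcn1). At an unadjusted p under 0.05 these 3 lists had 1 gene each, and DESeq2 called 0.

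Elongation factors deliver charged tRNA to the ribosome and move it along. Their cytosolic and mitochondrial lists are short and were not compared by a test. The shares over all genes tested were 16.1% called higher and 14.8% lower. Of 5 cytosolic factors 4 rose and none fell (4 and 0 by DESeq2). Eef1a1 had 644, 717 and 664 CPM in WT and 981, 1244 and 1316 CPM in Cd226-/- (1.75-fold, adjusted p = 0.00122), with the lowest Cd226-/- value in replicate 1. Eef1b2 rose 1.41-fold (adjusted p = 7.64e-06) and Eef2 1.16-fold (adjusted p = 0.00248). Of 4 mitochondrial factors 2 fell and none rose (2 and 0 at an unadjusted p under 0.05; 1 and 0 by DESeq2). Gfm1 had a log2 fold change of -0.26 ± 0.072 (SE, adjusted p = 0.00751; 0.0524 without Cd226-/- replicate 3). For Tufm the value was -0.29 ± 0.10 (SE, adjusted p = 0.0312), lost without WT replicate 1 (0.0896), WT replicate 3 (0.0931), Cd226-/- replicate 1 (0.113) or Cd226-/- replicate 3 (0.0779), and by DESeq2 (0.0633). Eef1a1 and other elongation factor genes have many processed pseudogenes, so their counts are uncertain.

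In the list of ATF4 and genes of its axis, 8 of 12 rose and 1 fell, against 16.1% higher and 14.8% lower over all genes tested. At an unadjusted p under 0.05 the list had 9 higher and 1 lower, and DESeq2 called 8 and 1. This list, like the others, was chosen with earlier results of these data known. Asns, the asparagine synthetase, had 6.30, 6.72 and 5.38 CPM in WT and 21.5, 29.2 and 28.1 CPM in Cd226-/- (4.30-fold, adjusted p = 1.26e-10). Psat1, of serine synthesis, rose 2.87-fold, the pseudokinase gene Trib3 3.21-fold and the stress factor gene Ddit3 2.03-fold. Slc7a11, the cystine transporter, fell by 0.63 on the log2 scale (adjusted p = 3.27e-09). Atf4 itself had 338, 318 and 329 CPM in WT and 362, 319.6 and 313 CPM in Cd226-/-, overlapping, with a log2 fold change of 0.015 (adjusted p = 0.864).

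**Figure D5:**
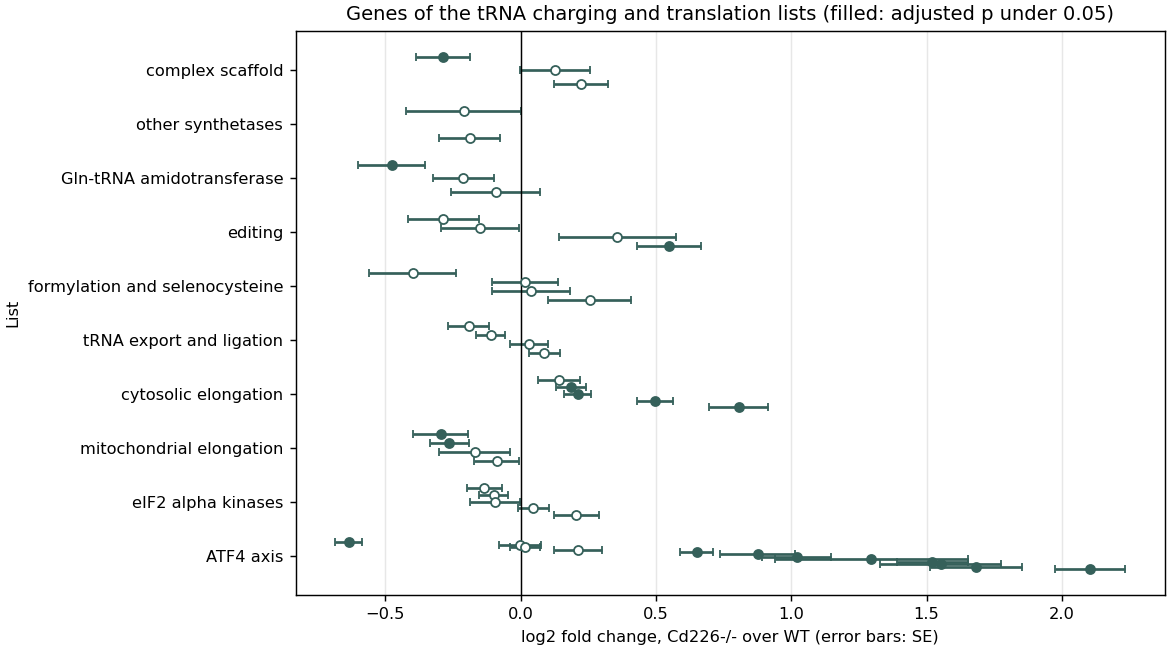
Log2 fold change (Cd226-/- over WT, error bars are SE) of the 46 tested genes of 10 lists around tRNA charging and translation, filled where the adjusted p was under 0.05. Filled points of cytosolic elongation lie to the right of 0 and those of mitochondrial elongation to the left, and Asns (2.10) is the farthest point of the ATF4 axis.

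Promoter sequences are shown for the cytosolic genes that hold the core of the C/EBP-ATF response element, the kind of site that ATF4 binds with a C/EBP partner. RefSeq windows (GRCm38.p6, 250 bases before to 50 after a transcript start) were matched for 26 of the 34 genes; Cars, Hars, Hars2, Lars, Nars, Pars2, Rars and Wars had none. The motif searched was TGATGNAA on both strands, where N is any base. It occurred in 5 of 13 cytosolic genes, in 0 of 13 mitochondrial genes and in 5 of the 12 genes of the ATF4 list. Within the ATF4 list, Asns and Trib3 held the motif and rose. Slc7a11 held it and fell, and Ddit3 and Psat1 rose without it. Of all genes with a window, 4.51% held it, as did 3.97% of all windows. Of the 7 cytosolic genes with a window that rose, 4 held it (Aars, Gars, Tars and Yars), and Eprs, Mars and Sars did not. Iars held it and did not pass the test. The 30 bases around 6 matches are given 5′ to 3′ on the strand of the gene with the motif in capitals, so that a match on the opposite strand reads as its reverse complement, and Asns is added as a gene of the ATF4 list:
Aars chr8:111033840-111033869 (plus strand): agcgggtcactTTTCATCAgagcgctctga
Gars chr6:55037960-55037989 (plus strand): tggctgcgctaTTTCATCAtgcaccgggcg
Tars chr15:11399655-11399684 (minus strand): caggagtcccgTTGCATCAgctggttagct
Yars chr4:129189895-129189924 (plus strand): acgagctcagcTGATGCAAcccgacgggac
Iars chr13:49682126-49682155 (plus strand): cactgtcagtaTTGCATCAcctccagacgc
Asns chr6:7693214-7693243 (minus strand): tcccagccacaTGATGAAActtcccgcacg
These 6 are a selection, and matches elsewhere in the windows are not described. Positions count the first transcribed base as 1 and the base before it as -1. In Gars the match began at -30, in Tars at -15 and in Asns at -23, just before the start. Those printed for Yars (at 4), Iars (at 8) and Aars (at 10) lay just after it. A longer stretch is printed for Gars and Tars, 130 bases before the start to 20 after it, as examples of a match just upstream of the start in a synthetase gene that rose:
Gars chr6:55037871-55038020 (plus strand): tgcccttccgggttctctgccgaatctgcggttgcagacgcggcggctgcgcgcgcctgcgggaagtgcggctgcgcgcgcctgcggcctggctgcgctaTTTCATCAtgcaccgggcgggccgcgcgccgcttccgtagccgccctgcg
Tars chr15:11399639-11399788 (minus strand): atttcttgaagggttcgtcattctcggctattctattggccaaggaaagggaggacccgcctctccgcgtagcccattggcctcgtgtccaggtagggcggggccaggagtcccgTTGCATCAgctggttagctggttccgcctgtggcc
The letters describe the windows only; no binding was measured.

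Exons of 12 of the 34 genes overlap those of another gene in GENCODE M21 (GRCm38), and since the strand setting of the counting is not given, shared reads cannot be assigned. Mars shares 68 bases with Ddit3 on the opposite strand, and both rose. Hars and Hars2, which lie head to head, share 195 bases. Aars shares 1326 bases with Exosc6 on the same strand, and Exosc6 fell (log2 fold change -0.51, adjusted p = 0.0164) while Aars rose. Iars2 shares 2034 bases with Rab3gap2 on the opposite strand, which had a log2 fold change of 0.13 and did not pass (adjusted p = 0.283). Fars2 shares 115 bases with Lyrm4 on the opposite strand, which fell as Fars2 did (log2 fold change -0.46, adjusted p = 0.0337). Exosc6, Rab3gap2 and Lyrm4 were looked up after the overlaps were seen.

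The listed genes do not cover every synthetase. Vars, the valine enzyme, had 25 counts over all 6 libraries and was not tested. The counting tool and annotation are not given, and whether so low a count reflects its RNA level was not tested. Vars2, the mitochondrial valine enzyme, had a log2 fold change of -0.21 and did not pass (adjusted p = 0.488).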

How the data were processed

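Per the labels' protocols, RNA of stimulated macrophages was harvested with Trizol. The authors deposited whole-number read counts per gene symbol, not normalized, for 6 libraries. HISAT2 and GRCm38 are named in the submitters' processing notes (counting tool, annotation and strand setting: not given in the sources used here). Columns were assigned by library title (0 columns unused; 0 rows name no gene).

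Counts were tested with edgeR 4.0.16 in R 4.3.3: filterByExpr, TMM scaling, robust quasi-likelihood F-test, two-sided, genotype as the only term, Benjamini-Hochberg adjustment over 13215 genes (biological coefficient of variation 6.75%). CPM use TMM-scaled library sizes, so that 1 count was 0.0452 to 0.0600 CPM. SE is the log2 fold change over the square root of F. Levels per kb divide CPM by the merged exon length of basic protein-coding transcripts in GENCODE M21. Every pair of libraries of a genotype differed by more than counting noise (chi-square over degrees of freedom 2.17 to 7.76). Gcn1 was matched as Gcn1l1. The steps were tested on simulated data. The members and lists were chosen with earlier results of these data known. Named were all members, Vars, Vars2, Atf4, Ddit3, Asns, Trib3 and, per list, up to 3 called genes by p; some items are not reported here. Alternatives were DESeq2 1.42.0 (size factors; Wald test), library size alone, no filter, a replicate block, leaving out each library and, added later, replicate 1 as the only Cd226-/- library.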

Additional observations from a re-analysis of the deposited data

How the results depend on the processing

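No called synthetase gene changed direction under any of the 12 alternatives, and 7 of the 16 called genes passed under all of them. Leaving out each library in turn gave 6 to 10 members higher and 3 to 6 lower (cytosolic 6 to 10 and 0 to 1, mitochondrial 3 to 5 lower), and 12 to 16 list genes higher and 2 to 5 lower; fewer samples were fitted, and where a genotype kept 1 library it is assumed to vary like the others. By DESeq2's Wald test 4 members were lower, 3 of them mitochondrial, and 3 list genes were lower. When scaled by library size alone, 2 cytosolic and 10 list genes were lower, the median log2 fold change of the cytosolic genes was 0.077 and their summed CPM was 1.11 times that of WT (1.16 in the main analysis); the cause was not tested. With the replicate number as a block, 8 members rose and 7 fell, Eprs (adjusted p = 0.0653) and Tars2 (0.0640) missed the threshold and Ears2 (0.0468) passed. Deviations of same-numbered libraries from their genotype means were nearly uncorrelated over genes (0.011, -0.013 and 0.015 for numbers 1 to 3). With 3 libraries per genotype, these values cannot show whether same-numbered libraries shared a batch, which the labels do not give. Genes that did not pass changed sign when scaled by library size alone (Kars -0.013, Aars2 -0.0086, Sars2 -0.043, Atf4 -0.039), without a filter (Sars2 -0.00083) or with replicate 1 as the only Cd226-/- library (Cars2 -0.15). Over the left-out libraries, the log2 fold change ranged from -0.065 to 0.062 for Iars, -0.0012 to 0.071 for Kars, -0.040 to 0.17 for Cars2, -0.35 to 0.055 for Mars2, -0.10 to 0.074 for Sars2 and -0.054 to 0.058 for Atf4. Counts were low for some mitochondrial genes: Mars2 and Nars2 had 48 to 121 and 42 to 112 counts per library.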

Other observations

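Tarsl2, a further threonyl-tRNA synthetase gene outside the list and named after its values were seen, had 3.07, 3.68 and 3.94 CPM in WT and 1.82, 2.88 and 2.29 CPM in Cd226-/-. The groups did not overlap, but the log2 fold change of -0.62 ± 0.24 (SE) did not pass (adjusted p = 0.0564 in edgeR). The cytosolic Tars rose while Tars2 lay at the threshold in the other direction, so the 3 threonine enzyme genes had log2 fold changes of 0.22, -0.21 and -0.62. Tarsl2 was placed in neither class here, so the counts by compartment leave it out. Its log2 fold change was below that of every listed cytosolic gene (lowest -0.24, Dars).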
